A study of Mus musculus with 12 samples.

Results

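Olfr78 and Olfr558 are 2 olfactory receptor genes that are transcribed in blood vessels as well as in the nose. They were chosen by name from the table of read counts of this series, on earlier results for the contrast described here, and are 2 of the 1277 Olfr genes and 47729 genes that the files list. Because the contrast between the 2 groups of libraries chose them, their own values in it are given as a description, with no test. The 123 other Olfr genes with at least 1 count served as the comparison.

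RNA was sequenced from mesenchymal cells of the uterus of healthy cycling female mice of the strain Pdgfrb-BAC-eGFP, in which a bacterial artificial chromosome drives green fluorescent protein (GFP) from the regulatory region of Pdgfrb, a growth factor receptor gene of mesenchymal and perivascular cells. Uteri were digested with enzymes and the cells sorted by fluorescence. The 6 GFPtotal libraries, which the labels call Naive, hold all GFP-positive cells, so GFP-high perivascular cells and GFP-low stromal fibroblasts together, in proportions that no label states. The 6 GFPlow libraries, called Stromal or GFPdim, hold the GFP-low cells alone. No treatment of the mice is stated for either group, nor are their ages. The series names 12 mice. Which mouse or mice went into which library is not stated, so p-values measure only the spread between libraries, which may be technical. The study compared the groups to infer the profile of the GFP-high cells, which were not sequenced alone.

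Olfactory receptors are receptors that span the cell membrane several times and couple to a stimulatory G protein. In the sensory neurons of the nose the G protein subunit Gnal activates adenylyl cyclase Adcy3, and the cyclic AMP made by it opens a cation channel built from Cnga2, Cnga4 and Cngb1. A few receptors are also transcribed outside the nose. Olfr78 responds to short-chain fatty acids such as acetate and propionate and is known from vascular smooth muscle, the renin-producing cells of the kidney and the carotid body. Olfr558 responds to slightly longer fatty acids such as butyrate and is likewise known from vessel walls.

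The 2 genes are neighbours on chromosome 7 (GRCm38). Olfr558 (ENSMUSG00000070423) runs on the plus strand from 102702331 to 102712054 in the authors' annotation, with 2915 exonic bases. Olfr78 (ENSMUSG00000043366) runs on the minus strand from 102740721 to 102759471, with 3496 exonic bases. Their 3′ ends face each other across 28666 bases, and neither shares an exonic base with another listed gene. Each has its whole coding sequence in 1 exon, 960 bases (320 codons) in Olfr78 at 102742042 to 102743001 and 951 bases (317 codons) in Olfr558 at 102709261 to 102710211, in GENCODE M21. A global alignment of the coding sequences had 62.0% identical columns, 601 of 969. These windows of 60 bases are shown because they bear on whether reads could be exchanged between the genes. The first pair is the stretch where the 2 coding sequences are most alike (chr7:102742809-102742868, minus strand, codons 45 to 65 of Olfr78, and chr7:102709403-102709462, plus strand, codons 48 to 68 of Olfr558), and capitals mark the bases that differ.
Olfr78: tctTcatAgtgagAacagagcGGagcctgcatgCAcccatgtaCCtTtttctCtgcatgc
Olfr558: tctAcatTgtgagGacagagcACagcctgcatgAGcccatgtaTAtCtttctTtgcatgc
Even there 11 of 60 bases differed. The second pair is the stretch of the alignment without gaps where they are least alike (chr7:102742536-102742595 for Olfr78 and chr7:102709676-102709735 for Olfr558), with 30 of 60 bases different.
Olfr78: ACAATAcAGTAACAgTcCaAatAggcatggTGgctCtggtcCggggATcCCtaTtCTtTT
Olfr558: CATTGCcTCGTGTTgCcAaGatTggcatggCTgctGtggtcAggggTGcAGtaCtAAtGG
The longest run of bases shared by the exons of both genes, on either strand, was 23. No window of 50 bases of either coding sequence, of 911 in Olfr78 and 902 in Olfr558, occurred in a transcript of any other gene in GENCODE M21. With shorter windows of 20 bases, Olfr558 shared at least 1 with 38 other Olfr genes. The gene that shared the most was its neighbour Olfr33, with 11 windows. Olfr78 shared at least 1 with 5.

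The start of Olfr558 is covered by the RefSeq promoter table for GRCm38.p6. Its window of 300 bases was searched on both strands for an E-box (CANNTG), a CArG box (the site of serum response factor in smooth muscle genes), the RBPJ site TGGGAA, the homeodomain site TAATTA and the O/E-type letters CCCNNGGG of the olfactory neuron factors. The part upstream of every annotated start of the gene is chr7:102702073-102702214, plus strand, with 48.6% G and C. It is shown because the gene was read in every GFPtotal library. Capitals mark the E-box, which reads the same motif on both strands.
Olfr558 promoter: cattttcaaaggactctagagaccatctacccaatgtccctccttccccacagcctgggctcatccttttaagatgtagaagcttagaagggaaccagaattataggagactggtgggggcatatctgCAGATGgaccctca
The E-box was present once. An E-box was found in 72.3% of the 32851 promoters of the table. The RBPJ site was present once, downstream of the bases shown, and was found in 25.6% of promoters. Neither match overlapped another motif. The CArG box (1.63% of promoters), TAATTA (5.29%) and CCCNNGGG (13.7%) were not found in this window. Olfr78 has no entry.

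Libraries held 12631266 to 18425596 counts, of which 32.4% to 49.0% were mitochondrial. On the leading principal component of all genes (34.0% of the variance) GFPtotal 3, 4 and 5 lay far from the rest, with scores of 101.6 to 107. The other GFPtotal libraries scored -3.82 to 6.66 and the GFPlow libraries -64.6 to -31.1. The header of the file of GFPlow 6 names its alignment N8, where the other 11 headers carry the letter and number of their label. It is kept in its labelled group, and where it sets a value of the receptors, that value is also given without it. Summed pericyte markers (14 genes) ranged from 1032 to 2187 CPM (counts per 1000000 counts) in GFPtotal and from 82.1 to 115 CPM in GFPlow. Of that sum, Pdgfrb, the gene behind the GFP, alone held 50.6 to 86.9 CPM in GFPlow. Smooth muscle markers (12 genes) summed to 666 to 1089 and 444 to 682 CPM, and the 10 fibroblast markers to 23711 to 40243 and 15736 to 23593 CPM. The smooth muscle sums of the groups overlapped, and Acta2 and Myh11 held at most 5.14 and 9.04 CPM of them in GFPlow. Markers of endothelium (11 genes; 38.3 to 65.2 and 39.7 to 60.4 CPM), leukocytes (11 genes; 3.95 to 18.1 and 4.49 to 16.3 CPM) and epithelium (10 genes; 2.22 to 13.3 and 7.79 to 14.7 CPM) were low and overlapped between the groups. The endothelial marker Cldn5 was at 0 in all 12 libraries. In GFPtotal 3, 4 and 5 the pericyte sum was 1688 to 2187 CPM, against 1032 to 1411 CPM in GFPtotal 1, 2 and 6. Other lists separated the same libraries, with smooth muscle markers at 1001 to 1089 against 666 to 738 CPM, fibroblast markers at 23711 to 27593 against 37749 to 40243 CPM, mesothelial markers at 68.7 to 79.8 against 45.0 to 48.3 CPM and epithelial markers at 8.05 to 13.3 against 2.22 to 6.71 CPM. In GFPlow the 6 mesothelial markers summed to 73.0 to 104 CPM. Of these markers, Msln and Upk3b were at 0 in all 12 libraries, so the sum says little on mesothelial cells. The part of any of these in the results was not tested.

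Olfr78 was read in every GFPtotal library and in almost no GFPlow library. GFPtotal 1 to 6 held 115, 169, 316, 214, 324 and 154 counts of it. The same libraries stood at 8.87, 13.6, 22.5, 13.1, 21.5 and 13.7 CPM, on library sizes scaled by the trimmed mean of M-values (TMM). GFPlow 1 to 5 held 0 counts and GFPlow 6 held 3. GFPtotal 3 and 5 were the highest, GFPtotal 1 was the lowest, and the groups did not overlap. The GFPtotal mean was 15.5 ± 5.32 CPM and the GFPlow mean 0.0271 ± 0.0663 CPM (SD, n = 6 each), a difference of 9.17 on the log2 scale. The ratio of the pooled counts, 1292 against 3, was 9.02 on that scale with an exact 95% binomial interval of 7.47 to 11.30, which covers counting error only. In the GFPlow libraries with 0 counts, the limit that a count of 0 allows (3 counts) lay between 0.169 and 0.218 CPM. Without GFPlow 6, which holds every GFPlow count of the gene, the difference was at least 8.70, taking 3 counts over the other 5 libraries as the floor.

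Olfr558 followed the same split. GFPtotal 1 to 6 held 71, 152, 211, 274, 337 and 199 counts, or 5.47, 12.3, 15.0, 16.8, 22.3 and 17.7 CPM. GFPlow 1 to 6 held 0, 0, 1, 2, 1 and 1 counts. GFPtotal 5 was the highest and GFPtotal 1 again the lowest, and the groups did not overlap. The GFPtotal mean was 14.9 ± 5.70 CPM and the GFPlow mean 0.0512 ± 0.0453 CPM (SD, n = 6 each), a difference of 8.19 on the log2 scale. The pooled counts, 1244 against 5, gave 8.23 with an interval of 7.0 to 9.85. The intervals of the 2 genes overlap. In these bulk libraries a smaller number of cells of a type and less RNA per cell cannot be told apart. Across all genes, all GFPtotal libraries lay above all GFPlow libraries for 415 of 14523 tested (2.86%). That comparison chose the genes, so their place in it is a description.

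**Figure D1:**
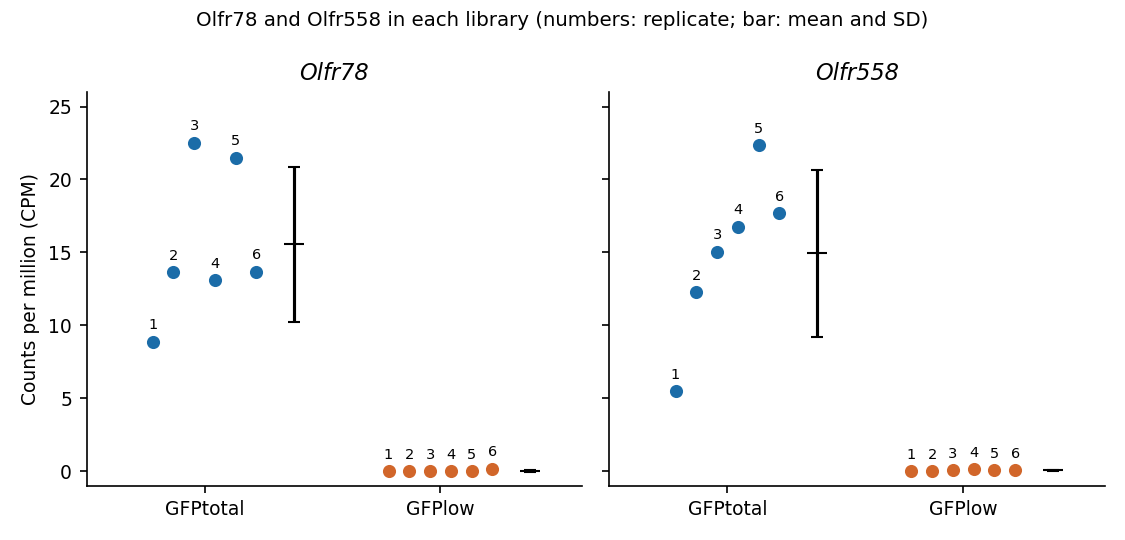
Each point is 1 library, with CPM (TMM scaling) on the vertical axis and the replicate number above the point. Bars give the mean and SD of 6 libraries. GFPtotal libraries ranged from 8.87 to 22.5 CPM for Olfr78 and from 5.47 to 22.3 CPM for Olfr558, and every GFPlow library lay at or below 0.162 CPM.

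The spread of both genes within GFPtotal lay within the range of the 7 perivascular markers. The highest library exceeded the lowest 2.54-fold for Olfr78 and 4.08-fold for Olfr558, where the markers ranged from 1.57-fold for Rgs5, a regulator of G protein signalling, to 10.3-fold for Kcnj8, a potassium channel subunit. The coefficient of variation was 34.2% for Olfr78 and 38.2% for Olfr558, beside 14.6% for Rgs5, 36.9% for Myh11, 39.0% for Acta2 and 85.4% for Kcnj8. The libraries that stand apart were not uniformly higher: GFPtotal 3, 4 and 5 ranged from 13.1 to 22.5 CPM for Olfr78 and 15.0 to 22.3 CPM for Olfr558. GFPtotal 1, 2 and 6 ranged from 8.87 to 13.7 CPM and from 5.47 to 17.7 CPM. With GFPtotal 1, 2 and 6 alone, a setting added after seeing the data, the log2 differences from GFPlow were 8.78 for Olfr78 and 7.83 for Olfr558.

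The 2 genes were read at similar levels. Per kilobase of exon, Olfr78 stood at 4.45 ± 1.52 and Olfr558 at 5.12 ± 1.96 CPM per kilobase in GFPtotal (SD, n = 6), a gap smaller than either SD. Those levels were higher than in 60.9% and 64.9% of the 14523 genes tested. Olfr78 made up 61.8% of the counts of both genes in GFPtotal 1, 52.6% in GFPtotal 2 and 59.96% in GFPtotal 3. It made up 43.9% in GFPtotal 4, 49.0% in GFPtotal 5 and 43.6% in GFPtotal 6. The balance of counts therefore tipped either way between libraries. Equal counts are not equal levels, since Olfr78 has more exonic bases (3496 against 2915). Per kilobase, Olfr78 was the higher of the pair in GFPtotal 1 (2.54 against 1.88) and GFPtotal 3 (6.44 against 5.16 CPM per kilobase). It was the lower in the other GFPtotal libraries, also in GFPtotal 2 (3.90 against 4.21), where it had more counts. The intervals below concern counts alone. In GFPtotal 1 and 3 the 95% Wilson interval lay above 50% (54.7% to 68.5% and 55.7% to 64.1%), and in GFPtotal 4 and 6 below it (39.5% to 48.3% and 38.5% to 48.8%). In GFPtotal 2 and 5 the interval included it (47.2% to 58.0% and 45.2% to 52.8%). The mean over libraries was 51.8% ± 7.82 (SD, n = 6), and it was 52.7% in GFPtotal 1, 2 and 6 alone. GFPlow held 8 counts of both genes together, too few to set a balance (37.5%, interval 13.7% to 69.4%).

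**Figure D2:**
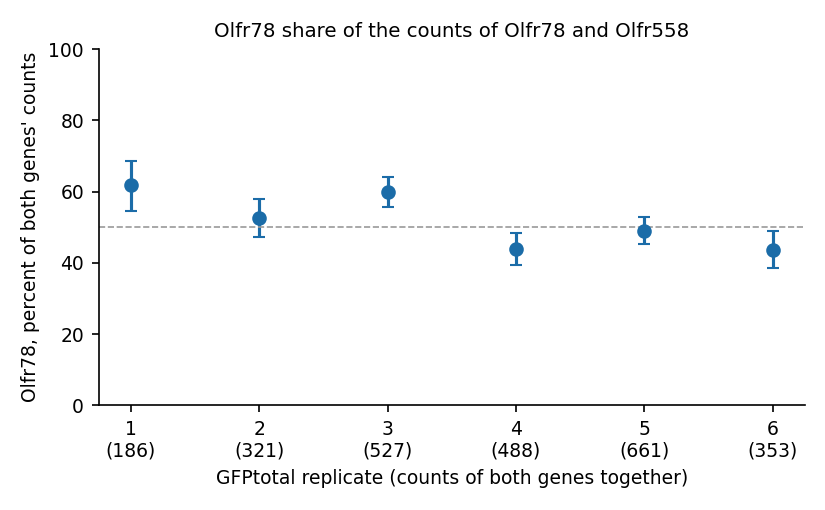
Points give the percent of the counts of Olfr78 and Olfr558 together that belong to Olfr78 in each GFPtotal library, with the number of counts of both genes in brackets. Bars are 95% Wilson intervals, which cover counting error only, and the dashed line marks equal counts. The values lay between 43.6% and 61.8%.

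Most other Olfr genes had too few counts to show a split of this kind. Of the 1277 Olfr genes, 1152 had no count in any library, and 77 of the 123 others with a count had it in a single library. In 105 of those 123, 1 library held at least 50% of the gene's counts, where the fullest library of Olfr78 held 25.0% and that of Olfr558 27.0%. Olfr78 and Olfr558 together made up 40.9% to 66.7% of all Olfr counts in a GFPtotal library and 0% to 2.31% in a GFPlow library. The upper limit belongs to GFPlow 6, and the other GFPlow libraries held at most 0.463%. Only 6 other Olfr genes had a count in all 6 GFPtotal libraries, as a split without overlap requires, and in 0 of the 6 did all GFPtotal libraries lie above all GFPlow libraries. They were Olfr920, Olfr1034, Olfr1033, Olfr1420, Olfr99 and Olfr1564. With 6 genes and a background of 2.86%, this says little about the family.

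Summed over the 123 genes, the other receptors had 171, 160, 717, 706, 695 and 232 counts in GFPtotal 1 to 6 and 370, 341, 270, 430, 247 and 169 in GFPlow 1 to 6. The groups overlapped, and the high values belonged to GFPtotal 3, 4 and 5. The GFPtotal sums averaged 31.2 ± 17.5 CPM and the GFPlow sums 18.6 ± 5.66 CPM (SD, n = 6 each), and the difference did not pass the test (difference 12.5 CPM, exact two-sided permutation p = 0.143, where the smallest p that 6 against 6 libraries allow is 0.00216). Without GFPtotal 3, 4 and 5 the difference turned to -3.17 CPM (exact permutation p = 0.405).

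Besides Olfr78 and Olfr558, 4 Olfr genes had enough counts to enter the test across all genes. At an adjusted p of 0.05, 0 of the 4 passed edgeR's quasi-likelihood test, DESeq2 or limma-voom. Over all genes edgeR called 4.55% higher and 0.854% lower, so 0 of 4 says little about the family. Of the 4, 1 had an unadjusted p under 0.05 in edgeR. It was Olfr920 on chromosome 9 (38752796 to 38756863), with 31, 39, 255, 346, 163 and 36 counts in GFPtotal 1 to 6 and 3, 23, 41, 100, 1 and 1 in GFPlow 1 to 6. Its high libraries were GFPtotal 3, 4 and 5, and the groups overlapped. The log2 fold change was 2.54 (SE 0.97, edgeR adjusted p = 0.157) and 0.77 without GFPtotal 3, 4 and 5 (adjusted p = 0.852).

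Olfr1033 and Olfr1034, neighbours on chromosome 2, were read in all 12 libraries. Olfr1033 stood at 3.37 ± 1.55 and 2.91 ± 1.57 CPM and Olfr1034 at 3.91 ± 2.89 and 3.05 ± 2.24 CPM in GFPtotal and GFPlow (SD, n = 6 each). Their log2 fold changes, 0.21 (SE 0.49) and 0.37 (SE 0.66), did not pass edgeR's test (adjusted p = 0.866 and 0.814). Olfr90 on chromosome 17 had 43 and 74 counts in the 2 groups and a log2 fold change of -0.50 (SE 1.01, edgeR adjusted p = 0.842). Per kilobase of exon, Olfr920 stood at 5.01, Olfr1034 at 4.19 and Olfr1033 at 3.61 CPM per kilobase in GFPtotal, beside 4.45 for Olfr78 and 5.12 for Olfr558. These 3 genes were also read in every GFPlow library, where Olfr78 and Olfr558 were almost unread. Olfr90 was lower, at 0.454 CPM per kilobase in GFPtotal.

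The remaining Olfr genes with the most counts were irregular. Olfr1417 had 105 of its 187 counts in GFPtotal 5, and Olfr412 had 94 of its 144 in GFPlow 1. Olfr1396 had 36, 67 and 23 counts in GFPtotal 3, 4 and 5 and 2 in GFPlow 6, with 0 in the other 8 libraries. Olfr1420 (140 counts), Olfr755-ps1 (132 counts) and Olfr756-ps1 (121 counts) were read in 9, 9 and 7 libraries. Olfr1033 and Olfr1034, like several of these, have close relatives in the genome, and reads exchanged between such copies were not tested.

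**Figure D3:**
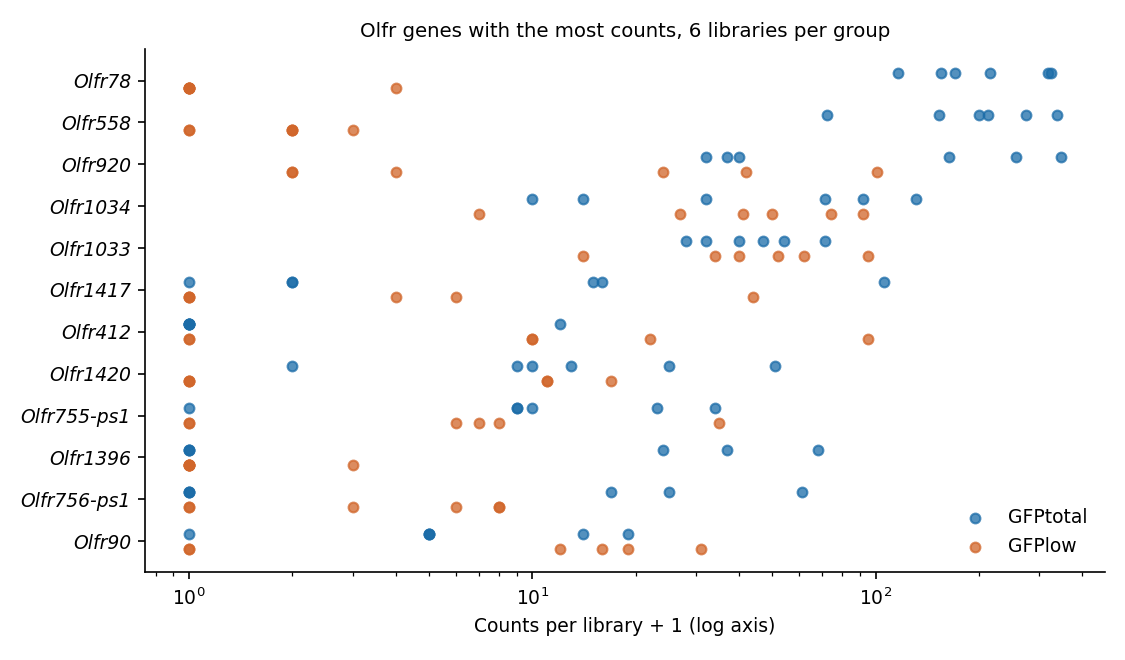
Rows are the 12 Olfr genes with the most counts, and each point is 1 library, with counts plus 1 on a log axis. Olfr78 and Olfr558 have at least 71 counts in every GFPtotal library and at most 3 in any GFPlow library, while the points of both groups overlap in the other 10 genes.

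Around the 2 genes, other receptor genes were almost unread. Of 24 other Olfr genes within 200 kb of either, 5 had any count, 16 counts together and at most 5 in 1 gene. The genes that lie between Olfr558 and Olfr78 are Olfr33, Olfr559 and Gm24210, with 3, 5 and 0 counts, all in GFPtotal. Beyond the start of Olfr78, from Olfr561 to Olfr575, all listed genes were at 0.

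The tripartite motif genes Trim21 and Trim68 were the only other genes there with at least 10 counts. Trim68, whose nearest base lies 15005 bases from the start of Olfr558, averaged 12.0 ± 4.03 CPM over the GFPtotal and 11.1 ± 5.99 CPM over the GFPlow libraries (SD, n = 6 each), and did not pass edgeR's test (log2 fold change 0.11, SE 0.36, adjusted p = 0.906). Trim21, an intracellular antibody receptor and ubiquitin ligase gene, was higher in GFPtotal at 17.7 ± 8.46 against 3.92 ± 3.38 CPM (log2 fold change 2.18, SE 0.47, edgeR adjusted p = 0.0108), in a table where 4.55% of genes were called higher and 0.854% lower. GFPtotal 3, 4 and 5 held 29.1, 25.4 and 19.4 CPM of it and GFPtotal 1, 2 and 6 held 14.3, 7.10 and 11.2 CPM. GFPlow 1 reached 10.7 CPM, so the groups overlapped. Without GFPtotal 3, 4 and 5 its log2 fold change was 1.45 and missed the threshold (adjusted p = 0.251).

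**Figure D4:**
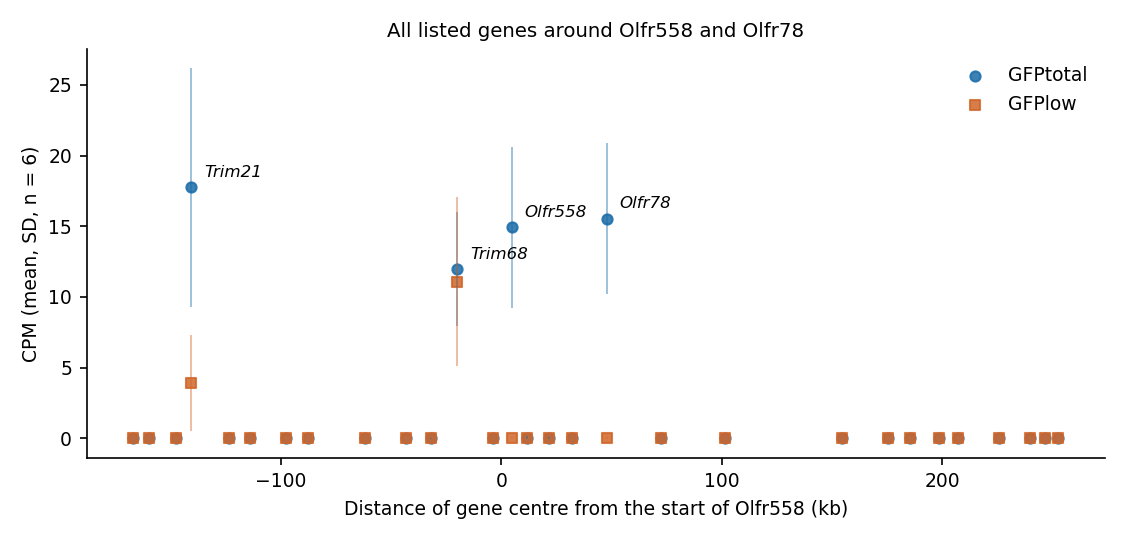
Each listed gene within 200 kb is placed by the distance of its centre from the start of Olfr558 in kilobases, with mean CPM and SD of 6 libraries per group. Only Olfr558, Olfr78, Trim21 and Trim68 rise above the baseline, at 14.9, 15.5, 17.7 and 12.0 CPM in GFPtotal.

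The trace of both receptors in GFPlow was compared with that of genes that mark pericytes and smooth muscle. Over the 6 GFPlow libraries Olfr558 stood at 0% to 0.788% of its GFPtotal mean, with 0 counts in GFPlow 1 and 2. Rgs5 stood at 0.116% to 1.40% (at most 0.987% without GFPlow 6) and Abcc9, the sulfonylurea receptor subunit of the pericyte potassium channel, at 0.0710% to 1.91%. The smooth muscle genes stood higher or reached further, Myh11 at 0.239% to 6.84% and Acta2 at 0.993% to 9.05% (at most 4.01% and 2.68% without GFPlow 6). Every GFPlow value of Olfr558 lay below those of Acta2 and of Notch3, the receptor of mural cells, which stood at 1.38% to 38.9%. Each of those Olfr558 values rested on at most 2 counts, under the floor of 3, so the order is not resolved.

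GFPlow 6 held the only Olfr78 counts of its group (1.04% of the GFPtotal mean) and also the top GFPlow level of Rgs5 (201 counts), of Kcnj8, the pore subunit of that channel (29 counts), and of the contractile genes Acta2 (95 counts) and Myh11 (167 counts). Abcc9 was highest in GFPlow 5 (93 counts). Cspg4, the NG2 proteoglycan gene, stood at 0% to 14.7% of its GFPtotal mean in the GFPlow libraries. Kcnj8 stood at 0% to 11.8%, and at most 1.09% without GFPlow 6.

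**Figure D5:**
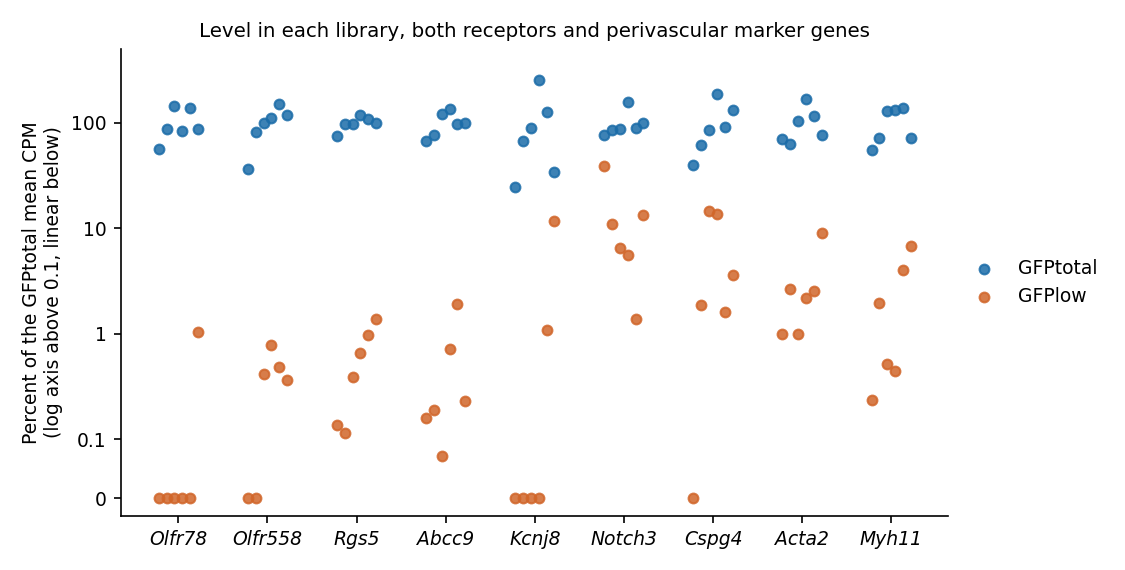
Each point is 1 library, given as percent of the mean CPM of the 6 GFPtotal libraries for that gene, on an axis that is logarithmic above 0.1 and linear below. GFPlow points lie at or below 1.04% for Olfr78 and Olfr558, reach 1.40% for Rgs5 and 1.91% for Abcc9, and reach 38.9% for Notch3.

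Scaling the receptors to a marker of the perivascular cells did not make the libraries alike. For every 100 counts of Rgs5, GFPtotal libraries held 1.41 to 2.93 counts of Olfr78 (2.09-fold) and 0.925 to 2.61 of Olfr558 (2.82-fold). For every 100 counts of Myh11, the smooth muscle myosin gene, they held 7.54 to 14.3 of Olfr78 (1.90-fold) and 7.46 to 18.5 of Olfr558 (2.48-fold). Of the 7 markers, Myh11 gave the narrowest range from lowest to highest library for both. By coefficient of variation Myh11 was also the lowest for Olfr78 (20.5%). For Olfr558, Rgs5 (31.1%) and Cspg4 (33.3%) lay below Myh11 (34.3%). Kcnj8 gave the widest range, 7.75-fold and 7.82-fold, and was itself the most variable, 10.3-fold between GFPtotal libraries.

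The genes whose pattern was most like that of the receptors were named by Pearson correlation of log2 CPM among 11584 tested genes, which leaves out genes without a unique symbol and predicted genes (names with Gm, Rik, AC or RP). Over all 12 libraries this mostly restates the difference between the groups. The 2 receptors were close to each other (r = 0.99). For Olfr558 no gene was closer than Olfr78, and for Olfr78 only Slc7a2, a transporter of cationic amino acids (r = 0.99), was closer than Olfr558. After these, the genes closest to Olfr78 were Ctnna3, an alpha-catenin (0.99), Sox6, a transcription factor (0.98), Btbd3 (0.98), Rgs5 (0.98), Dgkb, a diacylglycerol kinase (0.98), Map3k7cl (0.98) and Mn1 (0.98). For Olfr558, after Olfr78, they were Btbd3 (0.99), Ctnna3 (0.99), Sox6 (0.98), Tinagl1 (0.98), Slc7a2 (0.98), Rgs5 (0.98), Dgkb (0.97) and Abcc9 (0.97). Mean levels in GFPtotal and then GFPlow were 210 ± 40.3 and 1.91 ± 1.02 CPM for Slc7a2, with Sox6 at 6.11 ± 1.99 and 0.0331 ± 0.0540 CPM, and Ctnna3 at 5.31 ± 2.33 and 0.0929 ± 0.0387 CPM (SD, n = 6 each).

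Within GFPtotal the likeness of the receptors was looser. Over the 6 GFPtotal libraries r between them was 0.77, and 763 other genes were closer to Olfr78 and 593 closer to Olfr558. The closest to Olfr78 were Birc2, Cnot7, Aimp2, Bex3 and Ubac2 (r = 0.99 each), and 0 of these 5 passed edgeR's test between the groups (adjusted p = 0.333 to 0.933). Over all genes 4.55% were called higher and 0.854% lower, so the calls among 5 genes say little for either receptor. The closest to Olfr558 were Ccdc58 (1.00), Nfkbia (0.99), Stx6 (0.99), Htatip2 (0.99) and Fam227a (0.98). Nfkbia, an inhibitor of NF-kappaB, was the only one of these 5 to pass (log2 fold change 1.19, edgeR adjusted p = 0.0279). It missed the threshold without GFPtotal 3, 4 or 5 or without GFPlow 1, 4 or 6 (adjusted p = 0.0505 to 0.0709). Its log2 fold change was 0.82 without GFPtotal 3, 4 and 5 together (adjusted p = 0.377), and scaled by library totals alone its adjusted p was 0.0646. With Rgs5, r within GFPtotal was 0.57 for Olfr78 and 0.89 for Olfr558. With 6 libraries and 11584 genes, values of this size carry no test, and depth and the distance of GFPtotal 3, 4 and 5 from the rest are shared by the points.

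Genes of olfactory transduction, cyclic AMP, receptor transport, fatty acid and lactate receptors, monocarboxylate transport and other chemosensory receptors were read from 6 lists. The lists held 90 genes in all, 55 of which were tested. In edgeR, 6 were called higher in GFPtotal (4.55% of all genes tested were) and 1 lower (0.854%). Without GFPtotal 3, 4 and 5 the calls were 2 higher (Slc12a2 and Pde4b) and 0 lower. Over all genes the calls then fell from 661 higher and 124 lower to 245 and 50. The lists are described by counts and medians alone.

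Of 13 tested genes of olfactory transduction, 2 were higher and 0 lower, with a median log2 fold change of 0.52 against -0.0005 for all genes. Gnal, the G protein subunit of olfactory neurons, was read in both groups at 11.3 ± 5.95 and 5.83 ± 1.62 CPM and did not pass (log2 fold change 0.96, SE 0.36, adjusted p = 0.140). Adcy3 stood at 6.09 ± 3.84 and 4.96 ± 1.31 CPM and did not pass (adjusted p = 0.777). The olfactory channel was scarcely read: Cnga2 had 4 counts and Cnga4 had 1 in all libraries together, while its subunit Cngb1 had 141 counts in GFPtotal and 66 in GFPlow. The genes that rose were Slc12a2, a sodium, potassium and chloride cotransporter, and Camk2d, a calcium-dependent kinase. Slc12a2 held 80.0 to 115 CPM per GFPtotal library and 30.1 to 57.9 CPM per GFPlow library (log2 fold change 1.19, SE 0.17, edgeR adjusted p = 5.93e-04). Camk2d rose by less (log2 fold change 0.82, SE 0.18, edgeR adjusted p = 0.0125), was at 0.52 without GFPtotal 3, 4 and 5 (adjusted p = 0.229), and missed the threshold without GFPtotal 3 alone (adjusted p = 0.0503).

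Of 31 tested genes of the stimulatory G protein and cyclic AMP, 3 were higher and 1 lower, with a median of 0.27. Gnas, the stimulatory subunit of most tissues, averaged 15.7 ± 3.77 CPM over the GFPtotal and 7.22 ± 1.504 CPM over the GFPlow libraries, which did not overlap (log2 fold change 1.12, SE 0.26, edgeR adjusted p = 0.0165). Without GFPtotal 3, 4 and 5 it was 0.97 and did not pass (adjusted p = 0.190), and scaled by library totals alone its adjusted p was 0.0512. Akap12, an anchor of protein kinase A, stood at 133 to 174 CPM in GFPtotal 3, 4 and 5, at 53.1 to 72.1 CPM in GFPtotal 1, 2 and 6 and at 28.8 to 61.6 CPM in GFPlow. The change was 1.19 on the log2 scale (SE 0.29, edgeR adjusted p = 0.0239) and 0.47 without GFPtotal 3, 4 and 5 (adjusted p = 0.498). It also missed the threshold without GFPtotal 3, 4 or 5 alone, or without GFPlow 2 or 4 (adjusted p = 0.0545 to 0.0657), and scaled by library totals alone (adjusted p = 0.0636). Pde4b, a phosphodiesterase that breaks down cyclic AMP, rose by 1.04 on the log2 scale (SE 0.27, edgeR adjusted p = 0.0306). It missed the threshold without GFPtotal 1, 4 or 6 or without GFPlow 1, 4 or 6 (adjusted p = 0.0562 to 0.0715), and scaled by library totals alone (adjusted p = 0.0698). Without GFPtotal 3, 4 and 5 together it was 1.23 and just passed (edgeR adjusted p = 0.0491). Creb1, the transcription factor that responds to cyclic AMP, was the gene that fell, with 41.4 to 103 CPM per GFPtotal library and 111 to 143 CPM per GFPlow library (log2 fold change -0.91, SE 0.20, edgeR adjusted p = 0.0118). Without GFPtotal 3, 4 and 5 it was -0.59 and missed the threshold (adjusted p = 0.0607).

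Of 8 tested genes that help olfactory receptors to the cell surface, 1 was higher and 0 lower, with a median of -0.04. Rtp1 and Rtp2, the transporters of the nose, were at 0 in all libraries. Rtp4, a relative that interferon is known to induce, was the gene that rose. It stood at 48.6, 43.0 and 47.0 CPM in GFPtotal 3, 4 and 5, at 13.6, 17.5 and 18.4 CPM in GFPtotal 1, 2 and 6 and at 1.86 to 13.4 CPM in GFPlow (log2 fold change 2.38, SE 0.45, edgeR adjusted p = 0.00464). Without GFPtotal 3, 4 and 5 it was 1.43 and did not pass (adjusted p = 0.164).

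Of other receptors of fatty acids or lactate, Ffar1, Ffar2 and Ffar3, the free fatty acid receptors, were at 0 in all 12 libraries. The lactate receptor Hcar1 stood at 3.67 ± 3.09 and 1.68 ± 1.48 CPM and Hcar2 at 0.781 ± 0.507 and 0.818 ± 0.658 CPM in GFPtotal and GFPlow, and neither passed edgeR's test (adjusted p = 0.446 and 0.984). Of 4 tested monocarboxylate transporter genes, which carry lactate and short-chain fatty acids or chaperone the carriers, 0 passed in either direction (median 0.40). The highest were Bsg, at 37.4 ± 9.65 and 47.5 ± 13.3 CPM (adjusted p = 0.422), and Slc16a4, at 12.4 ± 4.92 and 7.36 ± 2.91 CPM (adjusted p = 0.225). Of 13 genes of other chemosensory families 0 had enough counts to be tested. The most counts belonged to the taste receptor genes Tas1r3 (170 in GFPtotal and 84 in GFPlow) and Tas2r143 (98 and 28).

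Markers of olfactory sensory neurons were checked as well. Gng13 and Rtp1 were at 0, and Omp, the protein that defines mature olfactory neurons, had 1 count in all libraries together. Stoml3 had 3 counts. The summed list (10 genes) ranged from 333 to 625 CPM over the GFPtotal and from 374 to 994 CPM over the GFPlow libraries, and most of that came from Ebf1 (370 ± 94.5 and 501 ± 198 CPM), which mesenchymal cells also transcribe. The sum therefore says little on neurons. Gnal, with the larger mean in GFPtotal, did not pass its test (above). Gap43, a growth cone protein gene, averaged 1.33 ± 0.991 CPM per GFPtotal library and 5.77 ± 6.70 CPM per GFPlow library (SD over 6), which did not pass edgeR's test (adjusted p = 0.102).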

How the data were processed

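The authors deposited raw read counts per gene for 12 libraries. Per the file headers, paired fragments over exons were counted with featureCounts 1.6.4, by gene of Ensembl release 84 on GRCm38, with a mapping quality of at least 10 and without strand. The submitters' processing notes list cutadapt and SAMtools. Reads were mapped with an aligner not given in the sources used here. The deposited series table held the same counts, with 0 columns without a sample. Symbols came from GENCODE M21 by identifier. Genes kept by filterByExpr (14523) were scaled by TMM and tested with edgeR 4.0.16 (quasi-likelihood, robust, no covariate, R 4.3.3), GFPtotal minus GFPlow, with Benjamini-Hochberg adjustment over all tested genes and a threshold of 0.05. The test was checked on simulated counts. CPM use TMM-scaled library sizes, and log2 CPM a prior count of 2. The standard error (SE) is the log2 fold change divided by the square root of F. Ratio intervals are exact binomial, shares have Wilson intervals (95%), and floors are 3 counts. All cover counting error only, not the spread between libraries. No molecular identifiers were used in counting, so the intervals may be too narrow even for counting error. Summed CPM were tested by two-sided exact permutation of the 12 libraries. Coding sequences were aligned with Biopython 1.88 (match 1, mismatch -1, gap opening -5, extension -1).

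Olfr78, Olfr558 and the gene lists were chosen with earlier results of these data known. Named genes were those 2, other Olfr genes with the most counts (up to 10) or tested, genes within 200 kb with at least 10 counts, up to 4 called genes per list (or the 2 most abundant), 7 perivascular markers, and the genes most correlated with each receptor, 8 over all libraries and 5 within GFPtotal. Other genes named in the text were chosen after their values were seen. Alternatives were other scalings, no low-count filter, DESeq2 1.42.0, limma-voom (limma 3.58.1), a replicate block, leaving out each library, and GFPtotal 1, 2 and 6 alone.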

Additional observations from a re-analysis of the deposited data

Results flagged for a closer look

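In 45 groups of 6 libraries (the CPM of named genes and the summed other Olfr genes), 14 had 1 library whose gap to the next was above Dixon's critical value at 95%. Chance passes that value in about 1 of 20 groups of normally distributed values, a rate that does not hold for sparse counts. Where 5 libraries are at 0, any count in the remaining library passes, so the 14 cannot be weighed against that rate. Olfr78 in GFPlow was 0.162 CPM in GFPlow 6 and 0 in the other 5. GFPlow 6 also stood out for Kcnj8 (1.57 CPM, others at most 0.145), Acta2 (5.14 CPM, others at most 1.52), Olfr755-ps1 (1.84 CPM, others at most 0.508) and Olfr1396 (0.108 CPM, others at 0). Among the other receptors, Olfr1417 was 6.96 CPM in GFPtotal 5 and 2.42 CPM in GFPlow 2, Olfr412 was 0.730 CPM in GFPtotal 5 and 5.93 CPM in GFPlow 1, and Olfr756-ps1 was 4.27 CPM in GFPtotal 3. Trim21 reached 10.7 CPM in GFPlow 1 (others 1.52 to 3.20), as did Notch3 with 8.20 CPM in the same library. Notch3 was 33.4 CPM in GFPtotal 4 (others 16.3 to 21.04), and Abcc9 6.75 CPM in GFPlow 5 (others 0.251 to 2.53).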

How the results depend on the processing

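Under other scalings and without 1 library, the log2 difference of Olfr558 was 7.92 to 8.62 and that of Olfr78 8.90 to 9.28. These values stayed within 1 SD of log2 CPM over the GFPtotal libraries (0.709 for Olfr558, 0.502 for Olfr78). For Olfr78 without GFPlow 6, only a lower bound of 8.70 is known, so that setting cannot be placed against the SD. With the replicate block the differences were 6.99 for Olfr78 and 6.57 for Olfr558, where the 0.1 CPM added to each value limits the ratio. The labels give both groups the same replicate numbers, but same-numbered libraries did not deviate together (correlations -0.139 to 0.089, and 2 of 6 libraries closest to their own number), so the numbers were not taken as pairs. With the replicate block 582 genes changed in place of 785, 5 genes of the lists passed in place of 7 (Gnas, adjusted p = 0.0515, and Pde4b, 0.0962, did not), and Olfr920 passed (adjusted p = 0.0250, range over its 20 alternatives 0.0250 to 0.852). DESeq2 called 1381 genes. Without 1 library the count was 467 to 970 (lowest without GFPtotal 3), and without GFPtotal 3, 4 and 5 it was 295. With total library size, calls in the higher direction made up 66.1% in place of 84.2%. Genes of the lists called were 5 to 8 without 1 library, 4 with total library size and 2 without GFPtotal 3, 4 and 5. The cause of these shifts was not tested. The share of Olfr78 was 49.8% to 53.5% without 1 library. The summed difference of other Olfr genes was 7.95 to 16.4 CPM without 1 library and -3.17 CPM without GFPtotal 3, 4 and 5. It passed the threshold under 0 of its 17 alternatives (exact permutation p = 0.0823 to 0.405).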
